A study of Mus musculus with 8 samples.

Results

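Gene expression in colon epithelial cells of wild-type (WT) C57BL/6J mice was compared between 2 arrays from mice given dextran sulfate sodium (DSS) and 2 arrays from untreated mice, 4 of the 8 arrays of the series. The DSS mice drank 3.5% DSS for 2 days, and the untreated mice received none. The other 4 arrays came from mice of the same background without SMS2, the sphingomyelin synthase encoded by Sgms2, 2 untreated and 2 given DSS in the same way. They entered the fit for their share of the estimate of spread and served to ask where the WT change differed. The labels name the samples colon epithelial cells and call the 2 arrays of a group biological replicates. Age, sex, the position along the colon, the way the epithelium was isolated and whether a replicate held 1 mouse or a pool are not in the labels used here. The comparison asks what 2 days of DSS, an early time in this model, do to the transcripts of an epithelial preparation with intact SMS2.

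The colon lining is a single sheet of cells that is renewed from stem cells at the base of the crypts. Their daughters divide, stop, and mature into absorptive colonocytes, mucus-producing goblet cells, hormone-producing enteroendocrine cells and tuft cells on the way to the surface. Below the sheet lies a stroma of fibroblasts, vessels, nerves and immune cells that supplies matrix, growth factors and chemokines. DSS is a sulfated polysaccharide that damages the sheet and lets gut bacteria reach the stroma, and it is a widely used chemical model of colitis in mice.

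Signals are deposited log2 values of 2 arrays a group, and differences are DSS minus untreated on that scale with the standard error (SE) of the limma fit. A gene was called higher or lower at a Benjamini-Hochberg adjusted p under 0.05 over all 13003 genes tested. Background is the 75th percentile of the negative-control probes of an array, 6.00 to 6.24. Where both arrays of 1 group lay under it, only a bound can be had: the fold then sets the mean of the brighter group against the average background of the dim arrays, and each gene so described passed the test. Values without a group name are in the order untreated replicates 1 and 2 against DSS replicates 1 and 2, and the same order holds for the 4 counts given with 1 WT array left out.

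Epithelial marker signal was even across the groups, while transcripts of other cells were not. The 7 defining epithelial markers had mean signals of 16.45 and 16.43 in the untreated arrays and 16.44 and 16.28 in the DSS arrays. None of them passed in limma, also at an unadjusted p under 0.05 (0 genes) or with trend and robust moderation (0 genes). Epcam, a surface marker of epithelium, was at 16.93 and 16.65 against 16.80 and 16.72 and Cdh1, which encodes E-cadherin, at 17.68 and 17.71 against 17.70 and 17.89. The fibroblast list had mean signals of 7.33 and 7.51 in the untreated arrays and 9.44 and 9.92 in the DSS arrays. The macrophage list had 7.30 and 7.43 in the untreated arrays and 8.58 and 8.82 in the DSS arrays, and that of blood vessel endothelium had 6.22 and 6.11 in the untreated arrays and 7.05 and 7.15 in the DSS arrays. All 3 were higher in both DSS arrays. In untreated knockout arrays the means were 8.44 and 8.23 for fibroblasts, 8.03 and 7.80 for macrophages and 6.79 and 6.69 for endothelium, each between the WT groups. In 348 of the 379 genes that were higher with DSS the untreated knockout mean lay above the untreated WT mean. In 97 of the 146 lower genes it lay below. Called genes are picked partly for extreme untreated WT values, so these 2 counts cannot show a difference between the untreated groups. Transcripts of exocrine pancreas were bright in DSS replicate 1 alone among the WT arrays. The 22 tested genes of that list averaged 8.01 and 7.82 in the untreated arrays and 12.52 and 7.98 in the DSS arrays, and Cela1, an elastase, was the single one that passed, at 13.17 and 12.13 against 15.84 and 15.13. Without DSS replicate 2, 18 of the 22 passed, and 1 did without DSS replicate 1. The Y-linked genes Eif2s3y, Uty and Kdm5d lay under background in both untreated arrays and were bright in both DSS arrays, with bounds of at least 33.7-fold, 16.0-fold and 3.16-fold. The X-linked Kdm5c fell by 1.15 ± 0.25, the single call among 6 tested X-linked partners of Y genes and escape genes. In 4 of the 6 both DSS arrays lay below both untreated arrays, and in 1 they lay above. The 5 tested Y-linked genes averaged 4.4 and 4.6 in untreated knockout arrays and 7.6 and 8.1 in knockout DSS arrays. Signal of Y-linked genes, which males alone carry, thus went with DSS in both genotypes. In other genes the effects of such a difference in sex cannot be told apart from those of DSS in either genotype. In a bulk sample, fewer cells of a type and less RNA per cell cannot be told apart either, and the part of other cell types in the results was not tested. The call was lost for Kdm5c with any WT array left out (-1.04 to -1.27). Other settings ended the call for Kdm5c (quantile normalization).

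**Figure D1:**
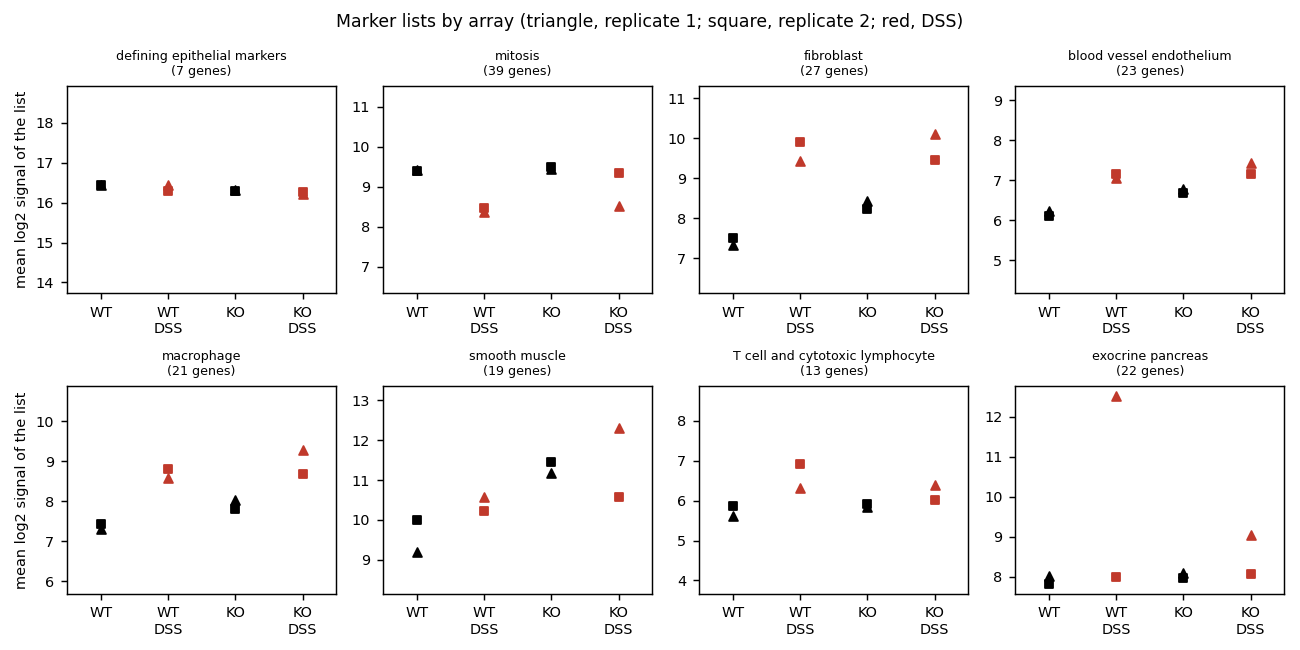
Mean log2 signal (y axis) of 8 marker lists in each of the 8 arrays, by group (x axis; WT, wild type; KO, SMS2 knockout). Each panel spans the same number of log2 units. The epithelial means of the WT arrays lie between 16.28 and 16.45, fibroblast means are 7.33 and 7.51 without DSS and 9.44 and 9.92 with it, and the exocrine pancreas mean is 12.52 in WT DSS replicate 1 against 7.98 in replicate 2.

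In WT mice given DSS, 525 of the 13003 genes passed (percent called, 4.04), 379 of them higher (2.91) and 146 lower (1.12). The median size was 1.70 among the higher genes and -1.35 among the lower ones, and 138 rose by over 2 log2 units while 19 fell by over 2. Both DSS arrays lay above both untreated arrays in 20.3% of all genes tested and below them in 24.1%, and in each of the 525 genes that passed the groups did not overlap. Of the higher genes, 126 were under background in both untreated arrays, and 14 of the lower genes were under it in both DSS arrays. The 2 arrays of a group correlated with r = 0.992 without DSS and 0.982 with it. Replicates differed by over 1 log2 unit in 121 genes without DSS and in 491 with it. With 1 WT array left out, 215, 245, 395 and 300 genes were called (182, 197, 273 and 234 higher, and 33, 48, 122 and 66 lower), and the count of lower genes moved most. Without DSS replicate 1, the array with pancreatic transcripts, 328 of the 525 genes remained called. With either knockout DSS array left out, 716 genes were called and 222 of them were lower. No called gene changed sign in any of the 17 alternative settings in which it was tested. With separate groups, leaving out 1 array cannot reverse a sign, and filters and moderation leave the difference unchanged. Of the called genes, 135 passed in all 17, with a gene filtered out of a setting counted as not passing.

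**Figure D2:**
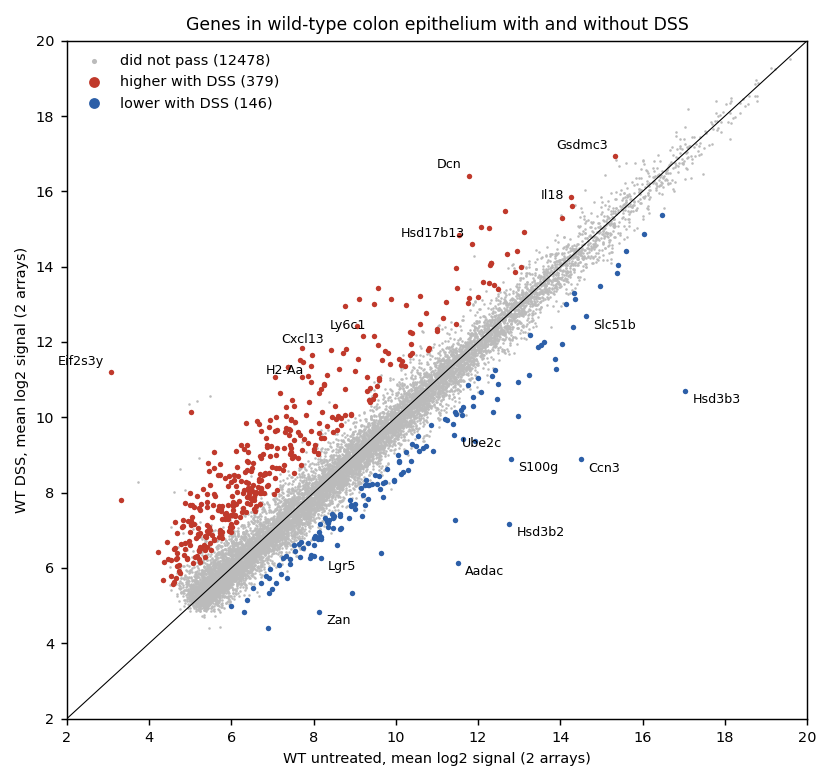
Mean log2 signal of each of the 13003 genes tested in WT untreated arrays (x axis) and WT DSS arrays (y axis), with 379 genes higher in red, 146 lower in blue and the line of equal signal. Hsd3b3, Ccn3, Hsd3b2 and Aadac lie furthest below the line, and 126 of the higher genes lie under background on the x axis.

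Gene lists of cell types and pathways differed in the direction of their called genes. Lists of matrix, vessels, macrophages, chemokines and class II antigen presentation held higher genes and none that were lower. The mitosis list held lower genes and none that were higher. Absorptive cells and bile acid handling had 8 and 4 lower genes and 1 higher gene each, and the list with steroid enzymes had 10 lower and 5 higher. Cytochrome P450, solute carrier, retinoid, Hox and ion transport lists also had calls in both directions, and in each of the lists with lower genes named here most members did not pass. Lists of ribosomal proteins, the unfolded protein response, glycolysis and tuft cells held no called gene. With 4.04% of all genes tested called, lists of this size can hold none without differing from all genes. The stromal lists together had 177 distinct tested genes, of which 63 were higher and none lower, and the immune lists had 67, of which 16 were higher and none lower. Of the called genes, 204 of the higher and 87 of the lower ones were in none of the 82 lists.

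**Figure D3:**
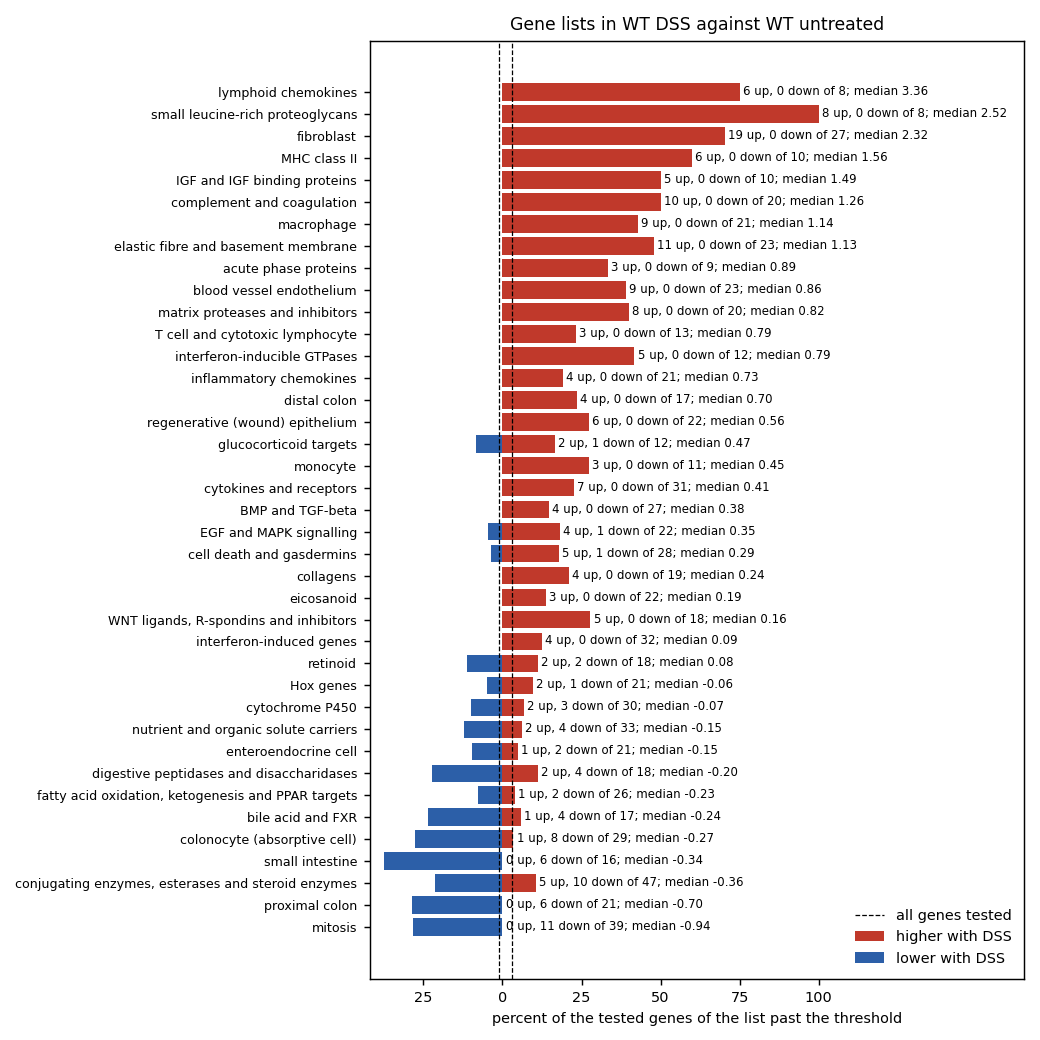
Share of the tested genes of each list that passed (x axis, percent; red to the right, higher with DSS; blue to the left, lower), for lists of at least 8 tested genes with at least 3 called, sorted by the median log2 difference. Dashed lines give the shares over all genes tested, 2.91% higher and 1.12% lower. The small leucine-rich proteoglycans stand at 8 higher of 8 tested, with 15 on the array, and the mitosis list at 11 of 39 lower.

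Several of the largest decreases were in enzymes that act on steroids and esters. Hsd3b3 and Hsd3b2 encode 3-beta-hydroxysteroid dehydrogenases, which oxidise steroids and move their double bond. Hsd3b3 had signals of 16.95 and 17.12 in the untreated arrays and 11.13 and 10.29 in the DSS arrays, a fall of 6.33 ± 0.28 (adjusted p = 6.84e-07), and Hsd3b2 had 12.67 and 12.84 against 7.52 and 6.84. Both genes lay far lower in each DSS array, and replicate 2 was the lower of the DSS arrays in both. Aadac, an esterase of the endoplasmic reticulum, stood at 11.61 and 11.41 against 5.97 and 6.31 (adjusted p = 1.66e-06), and of its DSS arrays replicate 1 was under background. Akr1c19, an aldo-keto reductase, read 11.24 and 11.61 against 7.01 and 7.54, with a difference of -4.15 ± 0.30. In the list of conjugating enzymes, esterases and steroid enzymes, 10 of 47 tested genes fell and 5 rose (median -0.36, against -0.05 over all genes tested), so the direction was mixed. With 1 WT array left out, 4, 5, 8 and 6 of its genes were lower. Hsd17b13, a lipid droplet enzyme, went the other way: with signals of 11.85 and 11.85 against 14.60 and 14.59 it rose by 2.75 ± 0.24. Fmo1, a flavin monooxygenase, rose as well, by 2.62 ± 0.26, with signals of 8.47 and 8.04 against 11.04 and 10.71. Among cytochrome P450 genes, 3 of 30 fell and 2 rose, and of these Cyp2d26 fell most, with signals of 13.18 and 12.78 against 10.25 and 9.83 (-2.94 ± 0.29, adjusted p = 0.000166). The fatty acid hydroxylases Cyp4f14 and Cyp4f40 fell by 1.93 ± 0.35 and 1.41 ± 0.22. The carboxylesterase Ces1g stood at 12.38 and 12.51 against 10.91 and 10.08 and fell by 1.95 ± 0.36. Cyp2c55, a colonic P450, stood at 17.86 and 18.39 against 18.06 and 18.08, a difference of -0.06 ± 0.24 that did not pass. Lower P450 genes numbered 1, 2, 4 and 2 and higher ones 0, 0, 1 and 0 when the WT arrays were left out in turn. Calls did not hold for Cyp4f14 with any WT array but DSS replicate 1 left out (-1.81 to -2.04), Cyp4f40 without untreated replicate 1 (-1.32) and Ces1g with any WT array but DSS replicate 1 left out (-1.53 to -2.02).

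The promoters of some of these genes hold the letters of the binding motif of HNF4, a nuclear receptor that drives absorptive cell genes. The motif was searched as CAAAGTNCA on both strands, 1 of 10 motifs searched, in the RefSeq promoter table (250 bases before to 50 after a gene's start, first listed start, mouse GRCm38.p6). It was found in 7 of the 114 lower genes with an entry (6.14%), in 2 of 283 higher genes (0.707%) and in 132 of 10522 genes tested (1.25%). The 7 genes were Hsd3b3, Cyp2d26, Slc3a1, Fabp2, H2-T3, Trpt1 and Vmn2r29, and the last 4 are named for the match alone. Shown 5′ to 3′ on the gene's strand, with the match in capitals, are Hsd3b3 (chr3:98763079-98763378 on the minus strand), Cyp2d26 (chr15:82794196-82794495 on the minus strand) and Slc3a1, a subunit of a transporter of dibasic amino acids (chr17:85028097-85028396 on the plus strand). Their matches begin at base 5 after the start, 58 before it and 39 before it. A match says only that the letters are there. The other motifs searched were CHR and CCAAT, described with the mitosis genes, and 7 more. TTTATNG, the CDX motif, was in 17.5% against 7.75% of lower genes and of genes tested, in that order. TATAAA, the TATA box, was in 14.9% against 9.15%, TGANTCA, the AP-1 motif, in 7.89% against 5.64%, and TTCNNNGAA, the GAS motif, in 6.14% against 7.11%. The longer ISRE, NF-kB and HNF1 motifs were in 3.51% against 3.11%, 0.877% against 1.59% and 0.0% against 0.0285%.
Hsd3b3: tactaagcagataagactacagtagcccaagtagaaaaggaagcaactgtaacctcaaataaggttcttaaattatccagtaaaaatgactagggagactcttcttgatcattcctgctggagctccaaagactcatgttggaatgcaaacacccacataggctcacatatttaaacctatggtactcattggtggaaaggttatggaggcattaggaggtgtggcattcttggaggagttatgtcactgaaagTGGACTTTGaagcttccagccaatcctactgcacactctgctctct
Cyp2d26: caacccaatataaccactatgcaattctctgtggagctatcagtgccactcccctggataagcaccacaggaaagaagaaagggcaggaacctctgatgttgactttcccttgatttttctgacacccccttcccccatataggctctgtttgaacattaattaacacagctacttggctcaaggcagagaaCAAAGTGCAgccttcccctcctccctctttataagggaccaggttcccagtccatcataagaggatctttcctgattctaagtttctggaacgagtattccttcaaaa
Slc3a1: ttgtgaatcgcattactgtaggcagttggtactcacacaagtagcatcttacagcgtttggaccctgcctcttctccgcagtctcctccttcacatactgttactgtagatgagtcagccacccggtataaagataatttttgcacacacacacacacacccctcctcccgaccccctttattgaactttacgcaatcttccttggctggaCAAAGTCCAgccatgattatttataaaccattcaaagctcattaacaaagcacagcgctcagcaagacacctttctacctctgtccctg
In Hsd3b3, for which the table lists 2 starts, the letters lie on the opposite strand. Slc3a1 stood at 9.83 and 10.06 against 8.16 and 8.52 and fell by 1.61 ± 0.24, and its partner subunit Slc7a9 fell to background, by at least 1.73-fold. The threshold was missed by Fabp2 with any WT array but DSS replicate 1 left out (-0.87 to -1.22), H2-T3 with any WT array but DSS replicate 2 left out (-0.98 to -1.46) and Slc7a9 with any WT array left out (-0.91 to -1.45). Alternatives that ended a call were those for Fabp2 (no filter, array medians set equal, quantile normalization, either untreated knockout array left out) and Slc7a9 (no filter, quantile normalization, either untreated knockout array left out, replicate block).

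Bile acid uptake, transfer and export fell together. Slc10a2, the apical importer, had signals of 12.84 and 13.11 in the untreated arrays and 11.14 and 10.76 in the DSS arrays and fell by 2.02 ± 0.24 (adjusted p = 0.000664). Fabp6, the cytosolic bile acid binding protein, stood at 9.86 and 9.42 against 5.87 and 6.93. Of the subunits of the basolateral exporter, Slc51a was at 12.10 and 11.76 against 9.47 and 9.25 and Slc51b at 14.40 and 14.85 against 12.73 and 12.62. All 4 genes of this path were lower in both DSS arrays. Of 17 tested genes on the bile acid list 4 fell and 1, the sterol transporter subunit Abcg8, rose at least 2.40-fold from under background. The list's median was -0.24, against -0.12 without DSS replicate 1 and -0.51 without DSS replicate 2, and Nr1h4, which encodes the bile acid receptor FXR, stood at 12.76 and 12.86 against 11.96 and 12.58 (-0.54 ± 0.25, adjusted p = 0.341). Calls were lost for Slc51b without untreated replicate 2 (-1.72) and Abcg8 with any WT array but DSS replicate 2 left out (1.31 to 1.68).

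Other genes of mature absorptive cells fell too, although well-known ones did not pass. Tmigd1, a membrane protein of the brush border, was at 13.76 and 13.99 in the untreated arrays and 11.76 and 11.31 in the DSS arrays (adjusted p = 0.000637). Dpep1, a dipeptidase, stood at 15.42 and 15.33 against 13.97 and 13.67 and fell by 1.55 ± 0.24. Slc13a1, a sulfate transporter, fell by 2.21 ± 0.35 and Slc9a3, the apical sodium-proton exchanger, by 2.07 ± 0.43, the latter with signals of 13.30 and 14.76 against 11.53 and 12.39. Of 29 colonocyte genes 8 fell and 1, the water channel Aqp8, rose by 1.34 ± 0.33. In the same list the carbonic anhydrase Car1 stood at 19.56 and 19.61 against 19.53 and 19.49, Ceacam1 at 18.29 and 18.60 against 18.45 and 18.46 and the surface protein Lypd8 at 18.59 and 18.85 against 18.81 and 18.88, and none of these passed. The counts of lower colonocyte genes were 4, 2, 4 and 4 with 1 WT array left out. Among solute carriers 4 of 33 fell and 2 rose: Slc15a1, the peptide importer, was at 11.33 and 11.11 against 13.22 and 12.90 and rose by 1.84 ± 0.30. Slc5a8, a transporter of short-chain fatty acids, had a difference of 0.69 ± 0.23 (adjusted p = 0.14). Lower carriers numbered 1, 2, 2 and 2 and higher ones 1, 0, 1 and 1 with 1 WT array left out. Ppara, a nuclear receptor of fatty acid oxidation, fell by 1.58 ± 0.24, while Hadha, an enzyme of that oxidation, stood at 15.94 and 15.89 against 15.93 and 16.06. Of the 26 tested genes of fatty acid oxidation 2 fell and 1, the fatty acid receptor Cd36, rose at least 3.61-fold from under background. Calls did not hold for Slc13a1 without untreated replicate 1 (-2.08), Slc9a3 without untreated replicate 2 (-1.35) or without DSS replicate 1 (-1.64), Aqp8 with any WT array but untreated replicate 2 left out (0.92 to 1.50) and Slc15a1 without untreated replicate 2 (1.74). A call was also lost for Aqp8 (no filter, array medians set equal, quantile normalization, array weights).

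Some digestive and calcium-handling genes that are typical of small intestine fell as well. S100g, the vitamin D-dependent calcium-binding protein, was at 12.47 and 13.12 in the untreated arrays and 8.59 and 9.21 in the DSS arrays, a fall of 3.89 ± 0.66 (adjusted p = 0.00603). Sis, which encodes sucrase-isomaltase, stood at 9.07 and 8.07 against 6.53 and 6.66 and fell by 1.97 ± 0.36. Of 16 tested small-intestinal genes 6 fell and none rose, with 3, 3, 3 and 4 lower genes when 1 WT array was left out. Of the 18 digestive peptidases and disaccharidases 4 fell and 2 rose, against 1, 2, 1 and 2 lower ones with 1 WT array left out. The other 6 of the 7 tested genes of the calcium list did not pass, among them Vdr, the vitamin D receptor, at 14.53 and 14.16 against 14.15 and 14.07. Xpnpep2, an aminopeptidase, went against this and rose at least 2.84-fold from under background, and Ace, the angiotensin-converting enzyme, rose by 1.70 ± 0.22. The threshold was missed by S100g without untreated replicate 2 (-3.56) or without DSS replicate 1 (-3.58) and Sis with any WT array but untreated replicate 2 left out (-1.47 to -2.04). Alternatives that ended a call were those for S100g (trend and robust moderation).

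Called genes that mark positions along the colon moved in opposite directions. Of 21 proximal-colon genes 6 fell and none rose, and of 17 distal-colon genes 4 rose and none fell. Osr2, a transcription factor of the proximal colon, stood at 13.76 and 14.05 against 10.99 and 11.58, and Hoxb9 fell by 1.19 ± 0.28. The posterior homeobox gene Hoxd13 was at 9.44 and 8.98 against 11.98 and 12.34 and rose by 2.96 ± 0.56, and Hoxd11 was at 7.55 and 7.25 against 9.97 and 9.40 and rose by 2.29 ± 0.37. As in every called gene, the groups did not overlap in these 4. Hoxb13, also a posterior gene, had a difference of 1.16 ± 0.55 and did not pass (adjusted p = 0.343). The proximal list includes Hsd3b2 and Hsd3b3, while Car4, a carbonic anhydrase, stood at 15.62 and 15.63 against 15.88 and 15.92 and did not pass. The part of colon position in the enzyme results was not tested. The counts were 3, 2, 4 and 3 lower proximal genes and 1, 1, 2 and 1 higher distal genes with 1 WT array left out. Calls were lost for Osr2 with any WT array left out (-2.33 to -2.91), Hoxb9 with any WT array left out (-0.96 to -1.42), Hoxd13 with any WT array but DSS replicate 1 left out (2.73 to 3.19) and Hoxd11 without untreated replicate 2 (2.14). Other settings ended the call for Osr2 and Hoxd13 (trend and robust moderation) and Hoxb9 (array weights, replicate block).

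**Figure D4:**
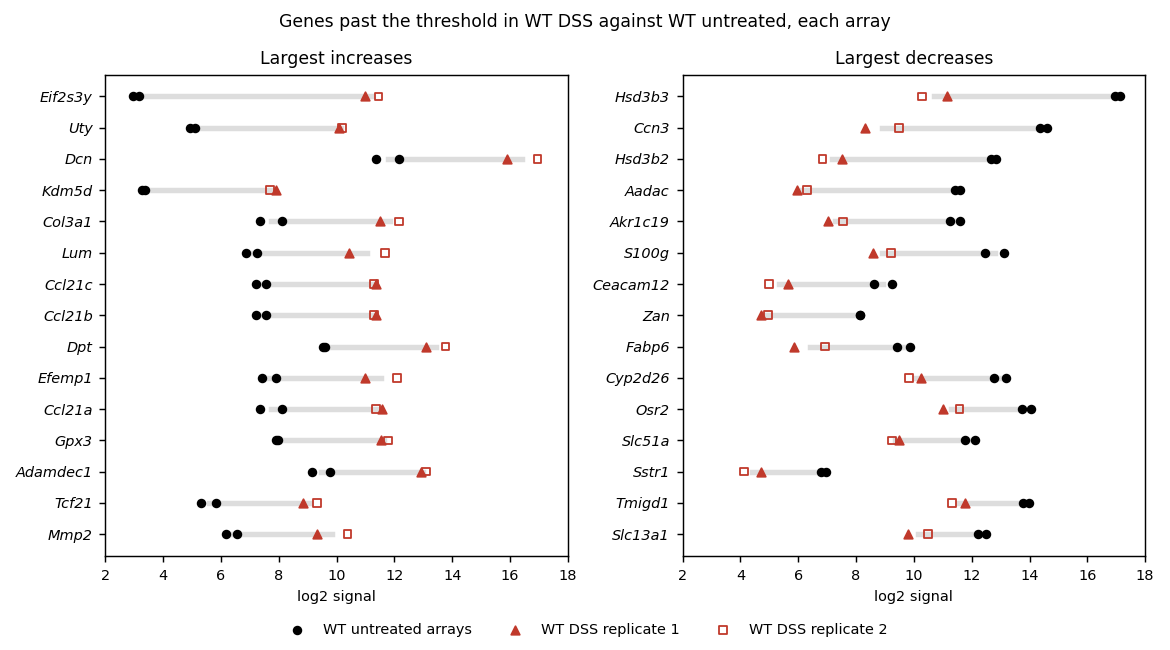
Log2 signal (x axis) in each WT array of the 15 genes with the largest increases (left) and decreases (right) among those past the threshold, by the ranking without predicted genes. Black circles are untreated arrays, red triangles DSS replicate 1 and open red squares DSS replicate 2, and grey bars join the group means. The groups overlap in none of the genes, as in every gene past the threshold.

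Some genes of cell division fell, and genes of DNA synthesis had lower values without passing. Ube2c, which pairs with the anaphase-promoting complex, stood at 11.34 and 11.50 in the untreated arrays and 9.65 and 9.43 in the DSS arrays and fell by 1.88 ± 0.29 (adjusted p = 0.00323). Ccnb2, a mitotic cyclin, was at 11.51 and 11.41 against 9.95 and 10.24, Bub1b, a spindle checkpoint kinase, at 8.31 and 7.72 against 6.75 and 6.49 and Plk1, the polo-like kinase, at 11.57 and 11.71 against 10.50 and 10.05. Of 39 tested mitosis genes 11 fell and none rose, the median was -0.94, and in 36 of them both DSS arrays lay below both untreated arrays. The list averaged 9.42 and 9.40 in the untreated arrays and 8.37 and 8.47 in the DSS arrays. Mki67, the Ki-67 proliferation marker, was at 11.72 and 12.15 against 10.71 and 11.51 and did not pass (adjusted p = 0.186), and Ccna2, a cyclin of S phase and G2, was at 11.40 and 11.45 against 10.94 and 11.16. None of 33 DNA replication genes passed in limma, also with trend and robust moderation (0 genes), while 12 had an unadjusted p under 0.05, which 15.4% of all genes tested had. With equal array medians 1 was lower, and without DSS replicate 1 there were 2. Their median was -0.62, against -0.37 without DSS replicate 2, and in 26 both DSS arrays lay below. Pcna, the replication clamp, stood at 14.74 and 14.54 against 14.92 and 14.61. With 1 WT array left out, the count of lower mitosis genes was 1, 2, 6 and 5, the fewest without an untreated array. Calls did not hold for Ccnb2 without untreated replicate 1 (-1.31) or without untreated replicate 2 (-1.42), Bub1b without untreated replicate 1 (-1.10) or without DSS replicate 2 (-1.27) and Plk1 with any WT array but DSS replicate 1 left out (-1.14 to -1.44).

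Promoters of the mitosis list are shown because many share letters that the choice of the list did not use. The cell cycle homology region (CHR), TTTGAA, a site through which many mitotic genes are silenced outside division, was searched on both strands in the same RefSeq windows. It was present in 25 of the 33 mitosis genes with an entry (75.8%) and in 1404 of 10522 genes tested (13.3%). Of 114 lower genes 43 had it (37.7%), some on the mitosis list and others, such as Hsd3b3, Aadac and Slc10a2, not on it. In Hsd3b3 the CHR letters share bases with the HNF4 match shown above. It was in 4 of 25 DNA replication genes (16.0%) and in 15 of 38 conjugating enzymes, esterases and steroid enzymes (39.5%). The box CCAAT, searched likewise, was in 25 of the 33 (75.8%) and in 39.0% of the genes tested. Shown are Ube2c (chr2:164769679-164769978 on the plus strand), Ccnb2 (chr9:70421505-70421804 on the minus strand) and Plk1 (chr7:122159185-122159484 on the plus strand) in GRCm38.p6, with both motifs in capitals on either strand.
Ube2c: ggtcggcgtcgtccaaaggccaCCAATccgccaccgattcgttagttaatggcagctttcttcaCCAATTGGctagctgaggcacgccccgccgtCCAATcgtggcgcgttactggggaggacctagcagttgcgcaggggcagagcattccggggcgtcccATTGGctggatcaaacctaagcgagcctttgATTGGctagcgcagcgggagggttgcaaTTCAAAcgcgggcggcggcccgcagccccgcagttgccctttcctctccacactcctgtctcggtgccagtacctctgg
Ccnb2: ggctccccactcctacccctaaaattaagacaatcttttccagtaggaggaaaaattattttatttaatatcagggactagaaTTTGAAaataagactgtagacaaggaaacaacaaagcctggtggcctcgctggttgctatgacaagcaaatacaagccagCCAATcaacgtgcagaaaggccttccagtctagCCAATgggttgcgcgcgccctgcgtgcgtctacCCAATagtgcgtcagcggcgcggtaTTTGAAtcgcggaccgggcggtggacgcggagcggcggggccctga
Plk1: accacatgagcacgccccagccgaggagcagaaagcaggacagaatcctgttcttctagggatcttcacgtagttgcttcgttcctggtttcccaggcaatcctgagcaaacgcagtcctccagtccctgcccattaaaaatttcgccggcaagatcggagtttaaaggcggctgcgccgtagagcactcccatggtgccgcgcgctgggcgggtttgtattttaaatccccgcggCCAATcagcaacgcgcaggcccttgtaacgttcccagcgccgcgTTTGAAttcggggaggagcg
The CHR letters lie 29 bases before the start in Ube2c on the opposite strand, 167 bases before and 5 after it in Ccnb2, and 31 after it in Plk1. CCAAT occurs 6 times in Ube2c, 3 times in Ccnb2 and once in Plk1, and each match is a description of letters alone.

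Of stem cell and WNT target genes, 2 fell. Lgr5, the receptor that marks crypt stem cells, was at 8.31 and 8.03 in the untreated arrays and 5.85 and 6.69 in the DSS arrays and fell by 1.90 ± 0.29 (adjusted p = 0.00359). Axin2, a feedback gene of WNT signalling, stood at 8.66 and 8.29 against 7.26 and 6.84 and fell by 1.42 ± 0.24. Both were lower in each DSS array, and the other genes of the 16 tested did not pass. Myc stood at 13.09 and 12.98 against 13.09 and 12.56 and Sox9, a transcription factor of the crypt base, at 14.10 and 13.66 against 14.81 and 14.60, with differences of -0.21 ± 0.25 and 0.83 ± 0.25. Leaving out 1 WT array gave 0, 2, 2 and 1 lower genes of this list. The threshold was missed by Lgr5 without untreated replicate 1 (-1.76) and Axin2 without untreated replicate 1 (-1.24) or without DSS replicate 2 (-1.21).

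Calls in other epithelial lineages are given beside the shares over all genes tested, 2.91% higher and 1.12% lower. Of 23 goblet cell genes 1 (4.35%) passed, B3gnt6, which builds mucin-type core 3 glycans and fell by 1.47 ± 0.27. The mucin Muc2 stood at 18.15 and 18.15 against 18.28 and 18.54. None of 10 tuft cell genes passed in limma, also with trend and robust moderation (0 genes), and 1 had an unadjusted p under 0.05. Of 21 enteroendocrine genes 2 (9.52%) were lower and 1 (4.76%) was higher. The hormone Sct and the prohormone convertase Pcsk1 fell by 1.34 ± 0.26 and 1.45 ± 0.26, and the granin Scg2 rose by 1.49 ± 0.37. Gcg, which encodes proglucagon, stood at 14.57 and 14.52 against 13.86 and 14.57 and Pyy, which encodes peptide YY, at 13.29 and 12.77 against 13.93 and 13.73, and neither passed. Reg4, of deep crypt secretory cells, was at 15.28 and 14.91 against 17.36 and 15.53, highest in DSS replicate 1 (adjusted p = 0.318). Calls were lost for B3gnt6 without untreated replicate 1 (-1.26) or without DSS replicate 2 (-1.27), Sct without untreated replicate 1 (-1.16) or without DSS replicate 2 (-1.11), Pcsk1 with any WT array but DSS replicate 1 left out (-1.38 to -1.53) and Scg2 with any WT array but DSS replicate 2 left out (0.94 to 1.70). Other settings ended the call for Scg2 (no filter, quantile normalization, either untreated knockout array left out).

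Some genes linked to injury and repair rose, although many of the calls were lost when 1 array was left out. Il1rn, the interleukin 1 receptor antagonist, had signals of 11.69 and 11.29 in the untreated arrays and 13.30 and 13.54 in the DSS arrays and rose by 1.93 ± 0.31 (adjusted p = 0.00452). Il18, an epithelial cytokine released by inflammasomes, stood at 14.40 and 14.14 against 15.47 and 15.76, and Il33, an alarmin, at 6.49 and 6.24 against 7.73 and 7.75. The interleukin 1 beta gene Il1b rose at least 3.67-fold from under background, and Csf1, the macrophage growth factor, rose by 2.51 ± 0.37. In all, 7 of 31 cytokine and receptor genes rose and none fell, against 4, 1, 6 and 3 with 1 WT array left out. The gasdermin Gsdmc2, of a family of pore-forming proteins abundant in colonic epithelium, was at 13.98 and 14.56 against 16.00 and 15.68 and rose by 1.57 ± 0.32. Its relatives Gsdmc and Gsdmc3 rose by 1.31 ± 0.30 and 1.60 ± 0.37, Gsdmc4 had a difference of 1.47 ± 0.76 that did not pass, and Gsdme, a gasdermin cleaved by caspase 3, fell by 1.23 ± 0.27. Near-identical copies of this family can share probes. Dusp5, a phosphatase that ends ERK signals, was at 13.26 and 12.97 against 15.12 and 14.74 and rose by 1.82 ± 0.25. It was the single called gene among 29 immediate early genes, and Fos, an AP-1 subunit of that list, stood at 18.29 and 18.03 against 18.40 and 18.55. Of 22 genes of regenerative epithelium 6 rose and none fell, and the count was 3, 0, 3 and 5 with 1 WT array left out. They included Ccn2, a matricellular growth factor (1.76 ± 0.29), and the EGF family ligand Ereg (1.63 ± 0.36). Ptgs2, the inducible cyclooxygenase, was at 5.78 and 6.51 against 8.77 and 8.61, and Ptges, the prostaglandin E synthase, at 6.61 and 6.28 against 7.75 and 7.96, and both passed. Calls did not hold for Il1rn without untreated replicate 2 (1.74), Il18 without untreated replicate 2 (1.22) or without DSS replicate 2 (1.20), Il33 without untreated replicate 2 (1.24), Il1b with any WT array but DSS replicate 1 left out (1.61 to 1.95), Gsdmc2 with any WT array but untreated replicate 2 left out (1.28 to 1.73), Gsdmc with any WT array but untreated replicate 2 left out (0.97 to 1.52), Gsdmc3 with any WT array left out (1.54 to 1.65), Gsdme with any WT array but untreated replicate 2 left out (-0.86 to -1.27), Ccn2 without untreated replicate 2 (1.65), Ereg with any WT array left out (1.47 to 1.80), Ptgs2 without untreated replicate 1 (2.18) and Ptges without untreated replicate 2 (1.24) or without DSS replicate 2 (1.30). A call was also lost for Il1b, Gsdmc and Ereg (quantile normalization) and Gsdmc3 (quantile normalization, array weights).

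Genes of connective tissue matrix rose together. Small leucine-rich proteoglycans bind collagen fibrils and growth factors. Of 15 on the array 8 were tested, and all 8 rose, with a median of 2.52. The filter used the mean of all 8 arrays, so a gene dim without DSS could enter through bright DSS arrays. That all tested members rose can therefore be partly a result of the filter. Decorin, Dcn, was at 11.38 and 12.17 in the untreated arrays and 15.89 and 16.95 in the DSS arrays and rose by 4.65 ± 0.36 (adjusted p = 5.69e-05). Biglycan, Bgn, stood at 9.66 and 10.11 against 12.75 and 13.55, and lumican, Lum, at 7.24 and 6.88 against 10.44 and 11.68. DSS replicate 2 was the higher of the DSS arrays in these 3 genes. Osteoglycin, Ogn, rose by 2.52 ± 0.42. The smallest rise was that of Prelp, with 1.14 ± 0.24. With 1 WT array left out, 4, 5, 7 and 4 of the 8 passed. Of 27 fibroblast genes 19 rose and none fell (median 2.32), with 16, 17, 19 and 16 when 1 WT array was left out. Sparc, a collagen-binding glycoprotein, was at 11.32 and 11.73 against 14.69 and 14.98, Dpt, a matrix protein of connective tissue, at 9.53 and 9.60 against 13.10 and 13.76 and Tcf21, a mesenchymal transcription factor, rose at least 7.73-fold from under background. Pdgfrb, a receptor of fibroblasts and pericytes, was at 7.11 and 6.86 against 7.83 and 8.14 and did not pass (adjusted p = 0.13), nor did Col1a1, which encodes a chain of fibrillar collagen I, at 5.33 and 5.68 against 6.47 and 6.90. The threshold was missed by Ogn without untreated replicate 1 (2.06) or without DSS replicate 2 (2.03) and Prelp with any WT array left out (0.99 to 1.29).

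Fibril, basement membrane and elastic genes rose in part. Col3a1, fibrillar collagen type III, was at 7.33 and 8.12 against 11.50 and 12.16 and rose by 4.11 ± 0.49, and Col6a2 of the microfibrillar collagen VI by 2.40 ± 0.40. Of 19 collagen genes 4 rose and none fell (median 0.24), against 1, 3, 3 and 2 with 1 WT array left out. Fbln1, a fibulin, stood at 7.45 and 7.50 against 9.96 and 10.97, and its relative Efemp1 at 7.43 and 7.92 against 10.96 and 12.09. Mfap4, of elastic fibres, was at 7.87 and 8.63 against 10.65 and 11.06, and all 3 passed. Eln, elastin itself, was at 6.49 and 6.41 against 6.14 and 7.36, where the groups overlapped. The basement membrane laminins Lamb3 and Lama3, which epithelium makes, had differences of -0.20 ± 0.24 and 0.19 ± 0.39. In all, 11 of 23 genes of elastic fibres and basement membrane rose, and 4, 6, 7 and 5 did with 1 WT array left out. Among matrix proteases and inhibitors 8 of 20 rose: Mmp2, a gelatinase, was at 6.18 and 6.54 against 9.31 and 10.37, and Adamdec1, of intestinal fibroblasts and macrophages, at 9.15 and 9.77 against 12.91 and 13.09. Timp2, an inhibitor of such proteases, stood at 8.43 and 8.21 against 10.87 and 11.37 and its relative Timp3 at 6.28 and 5.84 against 8.78 and 7.90. All 4 of these passed, and the groups were separate in them, as in every called gene. The call was lost for Col6a2 without untreated replicate 1 (2.15).

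Several growth factors and inhibitors that stromal cells are known to make rose. Bmp4, a ligand that promotes maturation of crypt cells, was at 7.89 and 7.98 in the untreated arrays and 11.31 and 11.41 in the DSS arrays and rose by 3.42 ± 0.29 (adjusted p = 6.68e-05). Bmp5 stood at 7.50 and 8.23 against 10.72 and 11.45, and Grem1, a BMP antagonist of fibroblasts near the crypt base, rose at least 6.21-fold from under background. The BMP target Id1 stood at 17.08 and 16.74 against 17.11 and 16.94 and Id3 at 12.30 and 12.19 against 11.52 and 11.05, and neither passed. In the list of BMP and TGF-beta genes 4 of 27 rose. The WNT inhibitors Sfrp1 and Dkk3 rose by 3.29 ± 0.33 and 1.91 ± 0.24, and 5 of 18 genes of WNT ligands, R-spondins and inhibitors rose. With 1 WT array left out that count was 2, 3, 3 and 2. Wls, needed for WNT secretion, was at 12.12 and 11.99 against 11.67 and 11.86. Igf1, an insulin-like growth factor, stood at 7.05 and 6.66 against 8.65 and 9.76 and rose by 2.35 ± 0.39, and the binding proteins Igfbp7 and Igfbp4 rose by 2.99 ± 0.30 and 2.24 ± 0.31. Their relative Igfbp5 rose at least 5.45-fold from under background. The receptor gene Igf1r was at 5.67 and 5.92 against 5.77 and 5.61. The ERBB ligand Nrg1, a stromal signal to crypts, rose by 1.60 ± 0.31. Calls did not hold for Igf1 without untreated replicate 2 (2.16) or without DSS replicate 2 (1.79) and Nrg1 without untreated replicate 1 (1.33) or without DSS replicate 2 (1.29).

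Chemokines that organise lymphoid tissue and some chemokines of inflammation rose. Cxcl13, which attracts B cells, was at 8.57 and 8.29 in the untreated arrays and 11.70 and 11.87 in the DSS arrays and rose by 3.36 ± 0.28. Cxcl12, the ligand of CXCR4, stood at 9.25 and 8.87 against 12.23 and 12.63, and Ccl21a, which guides cells into lymphatics, at 7.35 and 8.11 against 11.56 and 11.36. Rows for Ccl21b and Ccl21c held identical values, 7.19 and 7.55 against 11.37 and 11.30, so they are 1 measurement, counted here under both names. Of 11 genes of this list on the array 8 were kept by the filter, whose mean includes the DSS arrays. Of these 8 tested genes 6 rose (median 3.36), and 6, 5, 6 and 6 did with 1 WT array left out. Of 21 inflammatory chemokines 4 rose (median 0.73): Ccl11, an eosinophil attractant, was at 6.97 and 7.19 against 10.13 and 9.90 and Cxcl14 at 7.05 and 6.94 against 8.88 and 8.46, and Ccl3 and Ccl5, which attract myeloid cells and T cells, rose at least 3.43-fold and 2.75-fold from under background. Ccl28, an epithelial chemokine, stood at 12.88 and 12.67 against 12.67 and 12.92 and Ccl6 at 14.25 and 14.33 against 14.44 and 14.58, with no call. The median of the inflammatory list was 0.27 without DSS replicate 2. No test compared the lists.

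Part of the transcripts of blood and lymphatic vessels rose. Plvap, of fenestrated endothelium, was at 7.39 and 7.50 in the untreated arrays and 9.88 and 9.97 in the DSS arrays and rose by 2.48 ± 0.22 (adjusted p = 7.49e-05). Pecam1, a surface marker of endothelium, stood at 7.07 and 6.76 against 8.61 and 8.43, and Cd34, of endothelium and fibroblasts, at 7.05 and 7.05 against 9.24 and 10.03. Cdh5, the cadherin of vessels, rose at least 4.97-fold from under background. Of 23 endothelial genes 9 rose and none fell, with 6, 7, 8 and 7 higher genes when 1 WT array was left out. Lyve1, a hyaluronan receptor of lymphatics, was at 7.51 and 7.16 against 9.97 and 10.10. Of 9 lymphatic genes on the array 6 were kept by the filter, whose mean includes the DSS arrays. Of these 6 tested genes 5 rose, a count of 2, 3, 2 and 2 with 1 WT array left out. Rgs5, of pericytes, rose by 1.89 ± 0.35. Of 19 smooth muscle genes 1 passed, the hedgehog-binding Hhip, and the actin Actg2 was at 13.32 and 14.49 against 14.47 and 14.18, where the groups overlapped. Of the genes of enteric glia, Scn7a, a sodium channel, rose by 2.73 ± 0.36 and Gfra2, a neurturin receptor, at least 1.74-fold from under background, while the glial marker S100b was under background in all 4 arrays. The threshold was missed by Rgs5 without untreated replicate 1 (1.50) or without DSS replicate 1 (1.68) and Hhip without untreated replicate 1 (1.44) or without DSS replicate 2 (1.33).

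Some myeloid genes rose, while most neutrophil genes on the array were too dim to be tested. Lyz2, the lysozyme of macrophages and neutrophils, was at 7.30 and 7.08 in the untreated arrays and 10.44 and 10.87 in the DSS arrays and rose by 3.46 ± 0.42 (adjusted p = 0.000742). The IgG receptors Fcgr3 and Fcgr2b rose by 2.69 ± 0.34 and 2.98 ± 0.31. Apoe, a lipid carrier made by macrophages among others, stood at 10.76 and 10.40 against 13.33 and 13.12. C1qc, of the complement C1q complex, rose at least 1.72-fold from under background. Of 21 macrophage genes 9 rose (median 1.14), with 5, 6, 9 and 6 when 1 WT array was left out. Cd14, the lipopolysaccharide co-receptor, was at 9.15 and 8.79 against 10.11 and 9.63 and did not pass (adjusted p = 0.149). Ly6c1 and Ly6c2, surface antigens of monocytes and endothelium with similar sequences, rose by 2.71 ± 0.23 and 2.42 ± 0.28. Of 16 neutrophil genes on the array 4 were tested, too few for the absence of a call to say much. None of the 4 tested neutrophil genes passed in limma, also with trend and robust moderation (0 genes), and 1 had an unadjusted p under 0.05. Their median was -0.19, or -0.1 without DSS replicate 1, and the granule gene Mpo was under background in every WT array. Gzma, a granzyme of cytotoxic lymphocytes, rose at least 3.86-fold from under background, and Cd3e, part of the T cell receptor complex, was at 6.15 and 5.85 against 6.44 and 7.47 (adjusted p = 0.137). Jchain, the immunoglobulin joining chain, was at 11.76 and 12.76 against 14.61 and 15.42 and rose by 2.75 ± 0.41.

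Complement genes and some acute phase genes rose as well. Serping1, the C1 inhibitor, was at 7.49 and 7.94 in the untreated arrays and 10.96 and 11.20 in the DSS arrays and rose by 3.36 ± 0.28. Of the proteases it blocks, C1s1 stood at 7.14 and 7.50 against 9.72 and 9.73 and C1ra at 5.88 and 6.89 against 8.94 and 8.72. Thrombomodulin, Thbd, rose at least 2.78-fold from under background. In all, 10 of 20 complement and coagulation genes rose and none fell (median 1.26), and 8, 8, 9 and 9 did with 1 WT array left out. Of 9 tested acute phase genes 3 rose, with 2, 1, 2 and 2 when 1 WT array was left out, and the other 6 did not pass. Serpina3n, a protease inhibitor of this list, rose at least 6.26-fold from under background. The serum amyloid gene Saa1, which colonic epithelium makes, was at 11.75 and 10.76 against 10.76 and 11.81, Saa3 at 8.89 and 8.85 against 7.82 and 8.62 and the antimicrobial lectin Reg3b at 17.37 and 17.01 against 16.47 and 17.27. The groups overlapped in Saa1 and Reg3b, and none of the 3 passed.

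Antigen presentation genes rose in class II, and none rose in class I. Of the chains of the class II molecule I-A, H2-Aa was at 7.63 and 8.25 in the untreated arrays and 10.87 and 11.03 in the DSS arrays, a rise of 3.01 ± 0.35 (adjusted p = 0.000579), and H2-Ab1 at 8.65 and 9.51 against 11.51 and 11.61. H2-Eb1, of the molecule I-E, stood at 6.01 and 6.63 against 8.56 and 8.54 and H2-DMb1, which helps load peptides, at 7.20 and 7.71 against 9.04 and 9.32. Of 10 tested class II genes 6 rose (median 1.56), with 5, 6, 5 and 6 when 1 WT array was left out. The transcription factor gene Rfx5 was at 8.32 and 8.21 against 8.34 and 8.42, and Ifi30, a thiol reductase of antigen processing, at 14.84 and 14.83 against 14.85 and 14.42. Of 18 class I genes none rose and 1, H2-T3, which encodes the thymus leukaemia antigen of gut epithelium, fell by 1.26 ± 0.27. B2m, the class I light chain, stood at 18.50 and 18.65 against 18.43 and 18.66 and H2-K1 at 15.27 and 15.18 against 15.22 and 15.06. Among the interferon-inducible GTPases Gbp2 stood at 7.05 and 7.15 against 9.03 and 9.32 and rose by 2.08 ± 0.23, and 5 of 12 rose in all, against 1, 4, 1 and 1 with 1 WT array left out. Irgm1, of the same family, was at 10.67 and 11.06 against 10.80 and 10.64 and did not pass. The call was lost for H2-T3 with any WT array but DSS replicate 2 left out (-0.98 to -1.46).

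Class II promoters carry a conserved Y box, an inverted CCAAT, and a pair that the table holds are shown for the position of these letters. CCAAT on either strand was in 6 of 9 class II genes with an entry (66.7%), against 39.0% of the genes tested. The windows of H2-Aa (chr17:34287774-34288073 on the minus strand) and H2-Eb1 (chr17:34305617-34305916 on the plus strand) follow, from RefSeq on GRCm38.p6, 5′ to 3′, with the letters in capitals.
H2-Aa: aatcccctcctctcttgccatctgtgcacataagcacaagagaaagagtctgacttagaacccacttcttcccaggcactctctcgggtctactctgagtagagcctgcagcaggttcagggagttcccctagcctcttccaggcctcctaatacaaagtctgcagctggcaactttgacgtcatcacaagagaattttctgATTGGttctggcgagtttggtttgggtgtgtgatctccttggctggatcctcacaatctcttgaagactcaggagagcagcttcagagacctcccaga
H2-Eb1: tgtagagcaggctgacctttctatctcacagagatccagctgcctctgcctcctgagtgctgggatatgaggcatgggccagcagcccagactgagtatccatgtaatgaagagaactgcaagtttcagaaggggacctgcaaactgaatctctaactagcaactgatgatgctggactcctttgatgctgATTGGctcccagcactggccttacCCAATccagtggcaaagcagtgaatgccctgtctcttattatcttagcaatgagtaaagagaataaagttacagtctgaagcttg
The inverted letters begin 48 bases before the start in H2-Aa and 59 before it in H2-Eb1, and H2-Eb1 has the forward letters at 35 before it.

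Lists of housekeeping and cell stress are given beside the shares over all genes tested, 2.91% higher and 1.12% lower. At these shares a list of this size can hold no call without differing from all genes. None of 24 ribosomal protein genes passed in limma, at an unadjusted p under 0.05 (0 genes) or with trend and robust moderation (0 genes), with Rps6, a small-subunit protein, at 17.70 and 17.36 against 17.67 and 17.43. None of 37 nuclear respiratory chain subunits passed in limma, 13 had an unadjusted p under 0.05, against 15.4% of all genes tested, and 2 were lower with trend and robust moderation. Both DSS arrays lay below both untreated arrays in 29 of them, with a median of -0.45, or -0.30 without DSS replicate 2. Atp5b, a subunit of ATP synthase, was at 18.18 and 18.11 against 17.92 and 17.71. Of 27 genes of the unfolded protein response none passed in limma, also with trend and robust moderation (0 genes), and 1 had an unadjusted p under 0.05, with the chaperone Hspa5 at 18.03 and 18.01 against 18.29 and 18.33. Of 19 genes of cholesterol synthesis 13 had both DSS arrays below, and 1, the kinase Pmvk, fell by 0.95 ± 0.23. Fasn, fatty acid synthase, fell by 1.16 ± 0.23. Sgms2, the gene deleted in the other genotype, was at 10.79 and 10.76 against 11.27 and 10.90 in WT, a difference of 0.31 ± 0.29 (adjusted p = 0.708). Of 40 sphingolipid genes 2 (5.0%) fell: the ceramidase Acer1 by 1.26 ± 0.31 and the galactosyltransferase Ugt8a to background by at least 2.13-fold. Neither passed with any WT array left out, when the list had 0 lower genes. Calls did not hold for Pmvk with any WT array left out (-0.82 to -1.07), Fasn with any WT array left out (-0.99 to -1.33), Acer1 with any WT array left out (-1.13 to -1.39) and Ugt8a with any WT array left out (-1.20 to -1.54). A call was also lost for Pmvk (no filter, array medians set equal, quantile normalization, trend and robust moderation, WT arrays alone, replicate block, either untreated knockout array left out) and Acer1 (no filter, quantile normalization, replicate block, either untreated knockout array left out).

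A few genes of the retinoid, redox, steroid hormone and clock lists passed, beside 2.91% of all genes tested that were higher and 1.12% that were lower. Of 18 retinoid genes 2 fell and 2 rose: Isx, an intestinal repressor of vitamin A uptake, was at 11.79 and 11.98 against 10.56 and 10.51 and fell by 1.35 ± 0.26, and Aldh1a1, a retinal dehydrogenase, stood at 15.20 and 15.59 against 14.30 and 13.78. Aldh1a3, of the same function, rose at least 1.83-fold from under background. Of 43 NRF2 and glutathione genes 2 rose and none fell, and both are secreted antioxidant enzymes: Gpx3 was at 7.98 and 7.92 against 11.53 and 11.77 and rose by 3.70 ± 0.30, and Sod3 at 6.92 and 6.78 against 9.07 and 9.83 and rose by 2.61 ± 0.30. Of 12 glucocorticoid targets Fkbp5, a chaperone of the receptor, fell by 1.60 ± 0.29, with signals of 13.23 and 13.82 against 12.01 and 11.83. In the same list Klf9 and Hsd11b1, which activates glucocorticoids, rose by 0.96 ± 0.22 and 1.67 ± 0.27. Dbp, a clock output gene, rose by 1.39 ± 0.29, the single call among 14 clock genes, and the clock gene Nr1d1 stood at 12.60 and 12.04 against 12.33 and 12.80. Dnajb4, a heat shock cochaperone, rose by 1.35 ± 0.25, and Hspa1a, the inducible heat shock protein, was at 10.77 and 10.41 against 12.50 and 11.27 and did not pass. Sstr1, a somatostatin receptor, was at 6.80 and 6.97 against 4.71 and 4.12 and fell to background, by at least 1.70-fold. The threshold was missed by Isx with any WT array left out (-1.26 to -1.45), Aldh1a1 with any WT array but DSS replicate 1 left out (-1.10 to -1.55), Aldh1a3 with any WT array left out (0.97 to 1.62), Fkbp5 without untreated replicate 2 (-1.31) or without DSS replicate 2 (-1.52), Klf9 with any WT array left out (0.82 to 1.10), Hsd11b1 without untreated replicate 1 (1.38), Dbp without untreated replicate 2 (1.07) or without DSS replicate 1 (1.09) and Dnajb4 without untreated replicate 2 (1.10) or without DSS replicate 2 (1.17). Alternatives that ended a call were those for Aldh1a3 (no filter, array medians set equal, quantile normalization, array weights) and Klf9 (WT arrays alone, replicate block, either untreated knockout array left out).

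Other large decreases were in genes outside these pathways, which are named by size. Ccn3, a matricellular protein, was at 14.62 and 14.36 in the untreated arrays and 8.29 and 9.48 in the DSS arrays and fell by 5.60 ± 0.34 (adjusted p = 6.3e-06). Ceacam12, of the carcinoembryonic antigen family, and Zan, known as a sperm protein, fell to background. Ceacam12 was at least 7.02-fold lower, and Zan at 8.13 and 8.12 against 4.72 and 4.95, at least 4.02-fold lower. Far2, which reduces fatty acyl groups to alcohols, fell by 2.20 ± 0.24, and B4galnt1, a synthase of complex gangliosides, by 2.10 ± 0.31. The signals of B4galnt1 were 13.22 and 13.24 against 11.17 and 11.10, and the groups were separate in all 5 genes, as in every called gene.

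The WT change differed from that of the knockout in 10 genes (percent called, 0.0769), by a test of the difference itself over 13003 genes. In 6 (0.0461) the WT change was the more negative. Hsd3b3 fell by 6.33 in WT and had a difference of -0.80 ± 0.28 in the knockout, where signals were 17.02 and 17.00 against 16.29 and 16.12, and the changes differed by -5.53 ± 0.40 (adjusted p = 0.00013). Ccn3 stood at 13.54 and 13.83 against 15.29 and 15.26 in the knockout, above its untreated level in both DSS arrays, and the changes differed by -7.19 ± 0.48. For Hsd3b2, Aadac, Akr1c19 and Zan the differences between the changes were -4.71 ± 0.38, -5.10 ± 0.40, -3.03 ± 0.42 and -3.82 ± 0.32. In all 6 genes the WT DSS arrays were the lowest of the 8. In 4 genes (0.0308) the WT change was the more positive: Hsd17b13 and Arhgap6, a GTPase-activating protein, rose by 2.75 and 2.84 in WT and had 0.04 and 0.25 in the knockout. Ccl5 differed by 2.20 ± 0.34. Mme, the peptidase neprilysin, did not pass in WT (5.91 and 5.20 against 7.21 and 6.76), and its changes differed by 4.62 ± 0.67, with knockout signals of 10.56 and 8.76 against 6.38 and 6.55, highest in the untreated knockout arrays. The fall of other absorptive cell genes was not shown to differ: Slc51a changed by -2.57 in WT and -2.83 in the knockout (adjusted p = 0.998 for the difference), and Tmigd1 by -2.34 and -2.58 (adjusted p = 0.998). For Dcn the changes were 4.65 and 1.95, and the difference of 2.70 ± 0.52 did not pass (adjusted p = 0.149). Ccn3, Hsd3b3, Aadac, Hsd3b2 and Zan passed under every alternative run. Akr1c19, Ccl5, Arhgap6, Hsd17b13 and Mme did not pass when either WT untreated array (-3.21 and -2.85, 2.29 and 2.10, 2.58 and 2.61, 2.71 and 2.71, and 4.98 and 4.26 in that order of genes) or WT DSS replicate 1 (-2.77, 2.37, 2.63, 2.71 and 4.40) was left out. Ccl5 also lost its call without WT DSS replicate 2 (2.02) and without each knockout array (2.07 to 2.32). The calls of Akr1c19, Arhgap6 and Hsd17b13 were lost without knockout untreated replicate 2 (-2.78, 2.45 and 2.46), that of Akr1c19 without knockout DSS replicate 1 (-2.74), and that of Mme with either knockout DSS array left out (4.53 and 4.71). Scaling ended the calls of Akr1c19 (adjusted p = 0.0556 with equal array medians and 0.0881 with quantile normalization), Ccl5 (0.0661 and 0.0875) and Mme (0.0881 with quantile normalization). The call of Ccl5 was also lost with the replicate block (adjusted p = 0.0834), and that of Mme with array weights (0.0755). The count of 10 was 5 with either WT untreated array or WT DSS replicate 1 left out, 26 without WT DSS replicate 2 and 18 without knockout DSS replicate 2.

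**Figure D5:**
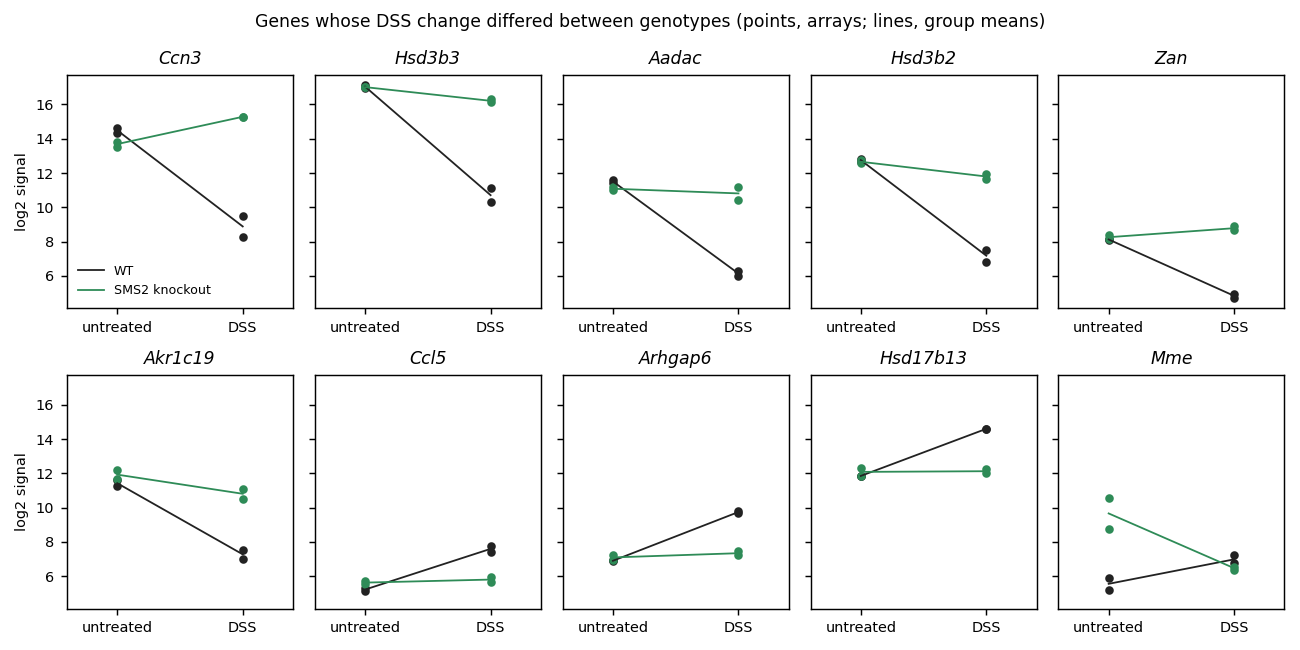
Log2 signal (y axis) without and with DSS in WT (black) and SMS2 knockout (green) arrays for the 10 genes whose DSS change differed between the genotypes. Points are arrays and lines join group means. Ccn3, Hsd3b3, Aadac, Hsd3b2, Zan and Akr1c19 are low in the WT DSS arrays alone, and Mme is high in the untreated knockout arrays.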

How the data were processed

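Total RNA of 8 mouse colon epithelial samples was labelled for Affymetrix whole-transcript arrays, per the labels' protocols. The deposited table holds 1 log2 signal per probe set and array, made by the authors with Affymetrix Expression Console per the submitters' processing notes; neither normalization nor genome build is given in the sources used here. Their scale was read from the values. Of 28846 rows, 6640 controls and 2634 without a symbol were left out, and the row of highest mean stood for each of 19505 genes; 39 genes share identical values with another gene. The lowest 33.3% by mean over all 8 arrays (under 5.15) were left out, leaving 13003. A gene dim without DSS could thus be tested because of bright DSS arrays. limma 3.58.1 (R 4.3.3) fitted 4 group means on 8 arrays (4 residual and 7.27 prior degrees of freedom). Adjusted p-values are limma's with Benjamini-Hochberg adjustment over 13003 genes, two-sided, threshold 0.05. An exact permutation test of 2 against 2 arrays cannot go below 0.333. Simulated data of 13003 genes had normal noise equal in every array, with the moderated spread of the fit to all 8 arrays. There 40.9% of changes of 1 and 99.4% of changes of 2 were recovered, with 7.33% of the calls false. For the difference between the genotypes these were 6.7%, 81.2% and 9.19%. WT replicates differed more with DSS than without it, so these rates may not hold for the data. Replicates are called biological in the labels; if they share a source, p-values measure technical spread.

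The members and the 82 gene lists were chosen with earlier results of these data known. Genes named were the largest changes without overlap between the groups, up to 8 called and 4 uncalled members of each list, all members of lists of up to 12, Sgms2, sex-linked genes, and genes whose change differed between the genotypes, except where another reason is given. Promoters came from RefSeq (GRCm38.p6), matched by Entrez number for 10522 of 13003 genes. The alternatives on rows and scaling were no filter, the lower 50% of genes left out, row means, equal array medians and quantile normalization. The others were trend and robust moderation, array weights, WT arrays alone, a replicate block, a threshold of 0.1 and leaving out each array.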

Additional observations from a re-analysis of the deposited data

Results flagged for a closer look

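The DSS change of 10 genes differed between WT and knockout mice by the test of the difference itself (limma, Benjamini-Hochberg adjusted p under 0.05 over 13003 genes, 2 arrays per group). WT changes minus knockout changes, on the log2 scale, were -7.194 for Ccn3, -5.529 for Hsd3b3, -5.098 for Aadac, -4.715 for Hsd3b2, -3.817 for Zan and -3.031 for Akr1c19. They were 2.197 for Ccl5, 2.596 for Arhgap6, 2.707 for Hsd17b13 and 4.621 for Mme. Their signals on each array are given above, with the left-out arrays that end the calls of Akr1c19, Ccl5, Arhgap6, Hsd17b13 and Mme and the scaling, array weights or replicate block that end those of Akr1c19, Ccl5 and Mme.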

How the results depend on the processing

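With 2 arrays per group, the count of called genes moved more with single arrays than with scaling. With 1 of the 8 arrays left out, genes past the threshold in the WT comparison ran from 215 to 716, genes higher from 182 to 494, genes lower from 33 to 222, and genes whose change differed between the genotypes from 5 to 26. At an adjusted p under 0.1, 799 genes passed in WT, 276 of them lower, and 16 differed between the genotypes. Counts were within 1.5 times the main ones with no filter (504), the lower 50% of genes left out (440), row means (525), equal medians (483), quantile normalization (418), trend and robust moderation (576), array weights (565) and WT arrays alone (600). The labels number replicates alike in both groups, and what replicates of 1 number share is not in the labels used here. Replicate deviations of the 2 WT groups correlated at 0.276 over the genes tested, and 2 pairs cannot show whether a batch was shared. With the replicate block 474 genes were called, 459 of them among the 525, and 10 differed between the genotypes, Ccl5 not among them. The causes of these shifts were not tested. No called gene of the WT comparison reversed, an outcome that separate groups fix in advance when 1 array is left out. Array signals have no read depth; the number of arrays limits the precision, and 126 of the 379 higher genes start under background.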
